A study of Mus musculus with 14 samples.

Results

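The primitive streak and mesoderm genes are 10 developmental regulators, T, Mixl1, Tbx6, Tbx5, Tbx20, Mesp1, Gsc, Evx1, Msgn1 and Fgf8, out of 21887 protein-coding genes of the mouse genome build mm10. For each gene, every deposited peak that lay inside it or came within 10 kb of either end was taken, with its width and its number of tags. These windows held 46 of 119739 H3K4me1 peaks, 41 of 89538 H3K4me2 peaks, 34 of 52912 H3K4me3 peaks and 4 of 4004 Mll1 peaks of the untreated cells. H3K4me1, H3K4me2 and H3K4me3 are histone H3 carrying 1, 2 or 3 methyl groups on lysine 4, read here by chromatin immunoprecipitation and sequencing (ChIP-seq).

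The cells were embryonic stem cells derived from C57BL/6J blastocysts, homozygous for a floxed Mll1 allele and carrying a Cre that tamoxifen induces (Mll1fl/fl; Cre-ER TM), kept on Matrigel without feeders in LIF, 5% serum and 15% KSR. All groups carried the floxed alleles and the Cre. Untreated cells, for which no vehicle is stated, were set against cells grown for 9 days and 3 passages with 100 µM MM-401, an inhibitor of Mll1, or with 5 µM 4-OHT, the tamoxifen metabolite that activates Cre-ER and so deletes Mll1. Mll1 was mapped in untreated cells only, so its loss after 4-OHT was not measured in these files. Chromatin was fixed in 1% PFA for 10 minutes, and 2 µg of antibody was used for each mark and 4 µg for Mll1. There were 10 peak lists, 1 for each immunoprecipitated library, and 4 inputs, with 1 library for each mark and condition, so differences between conditions have no replicate check and no p-value is given.

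Background on these genes is as follows. The primitive streak is the part of the early embryo through which cells leave the epiblast to form mesoderm and endoderm, under Wnt, Nodal and Fgf signals. T (Brachyury), Tbx6, Tbx5 and Tbx20 are T-box transcription factors: T marks the streak and notochord, Tbx6 the presomitic mesoderm, and Tbx5 and Tbx20 the heart. Mixl1, Gsc and Evx1 are homeodomain factors of the streak and organiser, Mesp1 and Msgn1 are basic helix-loop-helix factors of cardiac and presomitic mesoderm, and Fgf8 is a secreted growth factor of the streak. In embryonic stem cells such genes are typically quiet and carry H3K4me3 together with Polycomb marks, which were not measured here. Mll1 is the catalytic subunit of a complex that methylates H3K4.

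Filtered tags, those left after removal of duplicates, numbered 36.9, 40.1 and 25.3 M (M, 1000000 tags) for H3K4me1, H3K4me2 and H3K4me3 in untreated cells, 22.2, 19.8 and 12.9 M with MM-401, and 61.8, 48.6 and 26.4 M with 4-OHT. All levels below are tags in whole peaks per M filtered tags of the library, and a bracketed range is the exact Poisson 95% interval, which covers counting error only. The MM-401 libraries were shallower and, per the file headers, were processed apart from the others, with an H3K4me3 fragment length of 293 bp against 184 bp and 186 bp, so the drug and that difference in handling cannot be told apart. The label of the cells was checked against marker genes: 9 of 10 core pluripotency genes had an untreated H3K4me3 peak at the start (median 103 tags per M), against 3 of 7 fibroblast genes (median 0), 4 of 7 extra-embryonic endoderm genes (median 9.14) and 7 of 7 neural precursor genes (median 39.5).

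Promoters of 4 of the genes are shown because they mark the range of CpG content and of H3K4me3 among the 7 genes that matched the RefSeq table (GRCm38.p6). Each run is the 250 bases before the start site, written 5′ to 3′ in the direction of transcription, with CpG dinucleotides in capitals.
Gsc, chr12:104473237-104473486, minus strand: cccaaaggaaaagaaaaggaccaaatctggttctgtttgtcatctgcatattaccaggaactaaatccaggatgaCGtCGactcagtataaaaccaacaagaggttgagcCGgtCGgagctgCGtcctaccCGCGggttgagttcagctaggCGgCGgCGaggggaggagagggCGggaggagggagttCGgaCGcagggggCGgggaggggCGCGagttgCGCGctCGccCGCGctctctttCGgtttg
T, chr17:8434173-8434422, plus strand: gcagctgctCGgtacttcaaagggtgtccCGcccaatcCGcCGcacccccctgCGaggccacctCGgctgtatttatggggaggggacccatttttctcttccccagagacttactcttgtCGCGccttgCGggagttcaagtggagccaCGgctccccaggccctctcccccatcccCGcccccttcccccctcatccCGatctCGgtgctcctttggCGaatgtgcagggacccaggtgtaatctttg
Mesp1, chr7:79793591-79793840, minus strand: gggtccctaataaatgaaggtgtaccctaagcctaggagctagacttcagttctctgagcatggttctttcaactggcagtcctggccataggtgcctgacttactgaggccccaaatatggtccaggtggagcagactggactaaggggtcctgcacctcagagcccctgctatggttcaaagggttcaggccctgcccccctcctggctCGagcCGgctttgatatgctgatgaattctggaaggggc
Msgn1, chr12:11208949-11209198, minus strand: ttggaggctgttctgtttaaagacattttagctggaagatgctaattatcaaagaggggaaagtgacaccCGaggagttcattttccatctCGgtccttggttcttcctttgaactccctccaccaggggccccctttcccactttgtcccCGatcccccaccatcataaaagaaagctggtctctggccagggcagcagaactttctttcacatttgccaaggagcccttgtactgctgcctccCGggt

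Gsc and Tbx20 had 22 CpG each in this stretch, T had 14, Evx1 10, Tbx6 6, Msgn1 4 and Mesp1 2, against a median of 6 over 32851 promoters (quartiles 2 and 16). Msgn1 and Mesp1 were thus the CpG-poorest of the 7, and Gsc, the gene with the highest H3K4me3 of the 10, was among the CpG-richest. The letters CTTTGAT, a TCF/LEF motif of Wnt-responsive genes, were found on either strand in 2 of the 7, 31 bases before the start of Mesp1 and, as ATCAAAG, 203 bases before that of Msgn1, and 3.21% of all promoters held them. The variant TCF/LEF letters CTTTGTT (or AACAAAG) were in none of the 7 and in 5.03% of all promoters. The T-box motif AGGTGTGA (or TCACACCT) was in none of the 7 and in 1.12% of all promoters. Its core GTGTGA (or TCACAC) was in 1, Evx1, and in 12.3% of all promoters. The SMAD letters CAGAC (or GTCTG) were in 4 of the 7 (42.2% of all promoters), and the GATA letters AGATAA (or TTATCT) in none (9.99%). The TATA box letters TATAAA (or TTTATA) stood 43 bases before the start of Tbx6 and 164 bases before that of Gsc, and 12.4% of all promoters held them. These are letter matches in one window of the reference and not measured binding.

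In untreated cells all 10 genes had peaks of all 3 marks in their windows, where 82.7% of all genes had H3K4me1, 83.2% H3K4me2 and 80.4% H3K4me3. Within 1 kb of the start, all 10 genes had H3K4me2 and H3K4me3 and 9 of 10 had H3K4me1, and Tbx5 was the gene without it; over 20569 genes with a start the shares were 74.5%, 71.7% and 74.2%. For Mixl1, Tbx5 and Fgf8 the reference gave no strand, so the start was taken as the gene end with more untreated H3K4me3, and their H3K4me3 at the start was part of that choice.

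Among the T-box factors, untreated H3K4me3 at the start was 28.5 tags per M (26.5 to 30.7) at T, 29.8 (27.7 to 32.0) at Tbx20, 13.2 (11.8 to 14.7) at Tbx6 and 2.14 (1.61 to 2.79) at Tbx5. T and Tbx20 did not differ beyond counting error, and Tbx5, at the gene end used as its start, had the least of all 10 genes. Of the homeodomain factors, Gsc had 41.3 (38.9 to 43.9), Mixl1 30.9 (28.8 to 33.2) and Evx1 18.2 (16.6 to 20.0). Of the helix-loop-helix factors, Mesp1 had 20.8 (19.0 to 22.6) and Msgn1 3.56 (2.86 to 4.38), and the ligand gene Fgf8 had 22.2 (20.4 to 24.2). In the order of levels, Mixl1, Tbx20 and T had overlapping intervals, as did Fgf8, Mesp1 and Evx1 from one neighbour to the next, whereas Gsc stood above all others, Tbx6 below Evx1, and Msgn1 and Tbx5 below all others. All 10 lay below the median of the 14747 starts with an H3K4me3 peak, 41.6, at percentiles from 2.61 (Tbx5) to 49.7 (Gsc), although the interval of Gsc included it. These are levels per peak and not per length: the peaks ranged in width from 967 bp at Tbx5 to 5769 bp at Gsc.

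Breadth also separated the genes. Gsc, a gene of 2028 bp, lay within one H3K4me1 domain of 9620 bp, which held H3K4me2 over 7397 bp and H3K4me3 over 5769 bp. Evx1 was covered by an H3K4me1 peak of 9038 bp, with narrower H3K4me2 (5160 bp) and H3K4me3 (2254 bp) at the start. At Mixl1 H3K4me1 was instead the narrowest mark, with 901 bp against 2276 bp of H3K4me2 and 2060 bp of H3K4me3. At Tbx5 most of the marking lay inside the gene as placed, an entry of 88707 bp. Its window summed to 38.5 tags per M of H3K4me3 in 10 peaks, of which the start used held 2.14. The strongest peak (8.98) lay 6566 bp to 8737 bp into the entry at chr5:119803080-119805251. Transcripts were not used, so a further start inside the entry could not be told from other peaks there.

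**Figure D1:**
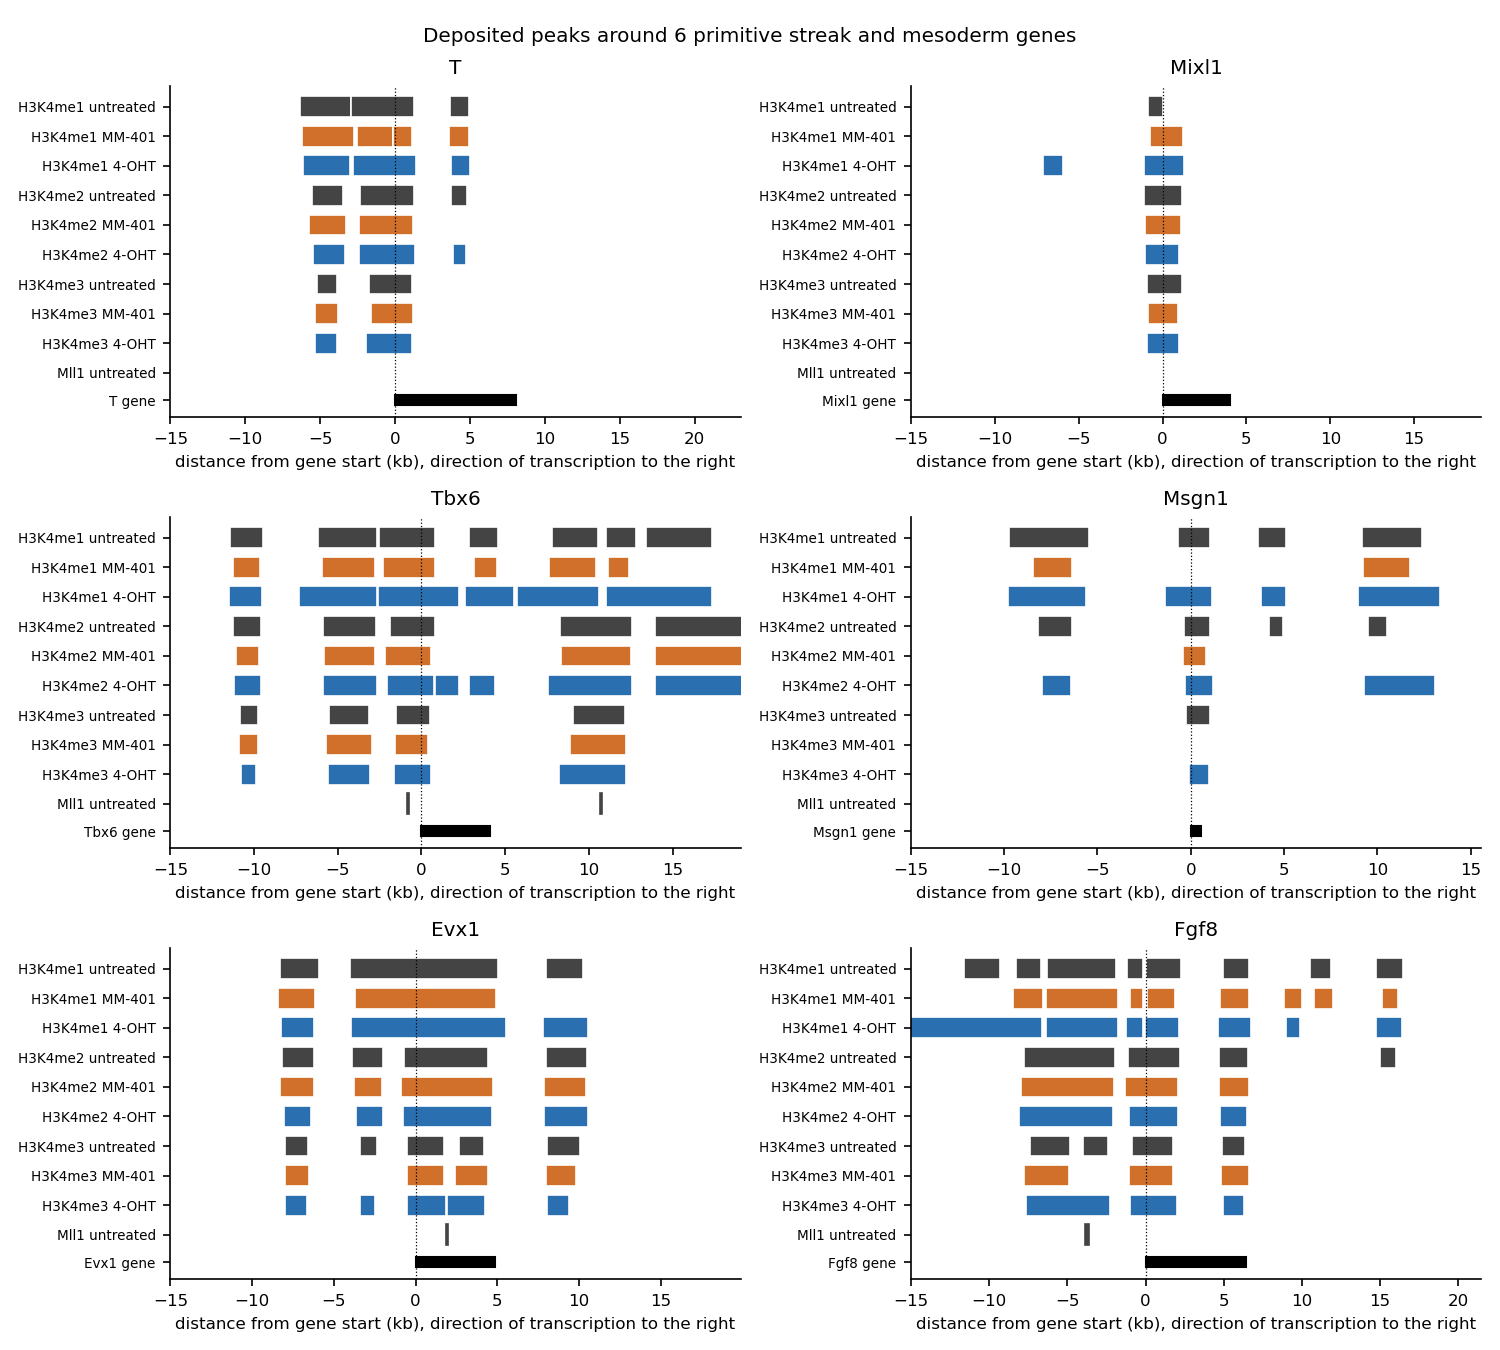
Deposited peaks around T, Mixl1, Tbx6, Msgn1, Evx1 and Fgf8, with distance from the gene start in kb on the horizontal axis and 1 row for each library (grey untreated, orange MM-401, blue 4-OHT; black bar, gene). Msgn1 has no H3K4me3 peak with MM-401, the H3K4me1 peak of Mixl1 is wider in both treated rows, and the 21337 bp H3K4me1 peak upstream of Fgf8 with 4-OHT runs beyond the left edge, as H3K4me2 peaks near Tbx6 run beyond the right edge.

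Mll1 peaks lay in the windows of 3 of the 10 genes, Tbx6, Evx1 and Fgf8, where 15.8% of all genes had one. At the start the count was 1 of 10 (Tbx6), with 3.87% of all starts as background. The Tbx6 peak (chr7:126780590-126780753) held 11 tags, with a false discovery rate of 2.39% in the authors' list, and ended 730 bp before the start, inside the H3K4me3 peak of that start. The Evx1 peak (chr6:52315367-52315499) held 9 tags, which is the lowest number in the Mll1 list, and lay 1869 bp into the gene. The remaining pair lay at other genes: 10 tags near the start of Ppp4c, in the Tbx6 window (chr7:126792142-126792284), and 13 tags at Npm3, upstream of Fgf8 (chr19:45746589-45746808). Only 0.285% of the Mll1 library's tags were in its 4004 peaks, so a gene without an Mll1 peak is one where binding was not detectable at this depth.

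With MM-401, H3K4me3 at the starts of these genes stood close to its untreated level, while over all starts it was slightly higher. Over the 9 genes with a peak in both libraries the median log2 ratio of MM-401 to untreated was -0.01, against 0.16 over 14097 starts, and 8 of the 9 were below that median, Tbx5 being above it. No gene was higher by at least 1.5-fold (1.94% of all starts) and 1 was lower, Tbx6 (5.27% of all starts). Among starts of all genes the ratio went with the untreated level. In 4 equal groups ranked from low to high untreated H3K4me3 the medians were -0.20, 0.12, 0.22 and 0.26. The 9 genes were in the lowest group (5 genes, Tbx6 among them) and the next (4 genes). In the lowest group 19.8% of starts were lower by at least 1.5-fold, against 0.766%, 0.369% and 0.199% in the others. The share of the untreated level in the genes' own ratios was not tested.

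By role, the T-box factor Tbx6 went from 13.2 tags per M (11.8 to 14.7) to 8.51 (6.99 to 10.3) with MM-401, a log2 ratio of -0.63, and to 15.0 (13.6 to 16.5) with 4-OHT. Its MM-401 interval did not overlap either of the others. T went from 28.5 to 23.8 (21.2 to 26.6) with MM-401 and to 26.5 (24.6 to 28.6) with 4-OHT, with intervals that overlapped. Tbx20 stayed within its interval at 30.2 and 29.0, and Tbx5 was listed at 2.86 and 2.95. The homeodomain factors with MM-401 and 4-OHT were at 28.2 and 27.1 for Mixl1, 38.3 and 38.5 for Gsc, and 18.5 and 20.4 for Evx1. None of these 3 moved beyond overlapping intervals. Mesp1 was at 22.9 and 19.9, and Fgf8 at 22.0 and 18.9, again with intervals overlapping those of the untreated library.

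**Figure D2:**
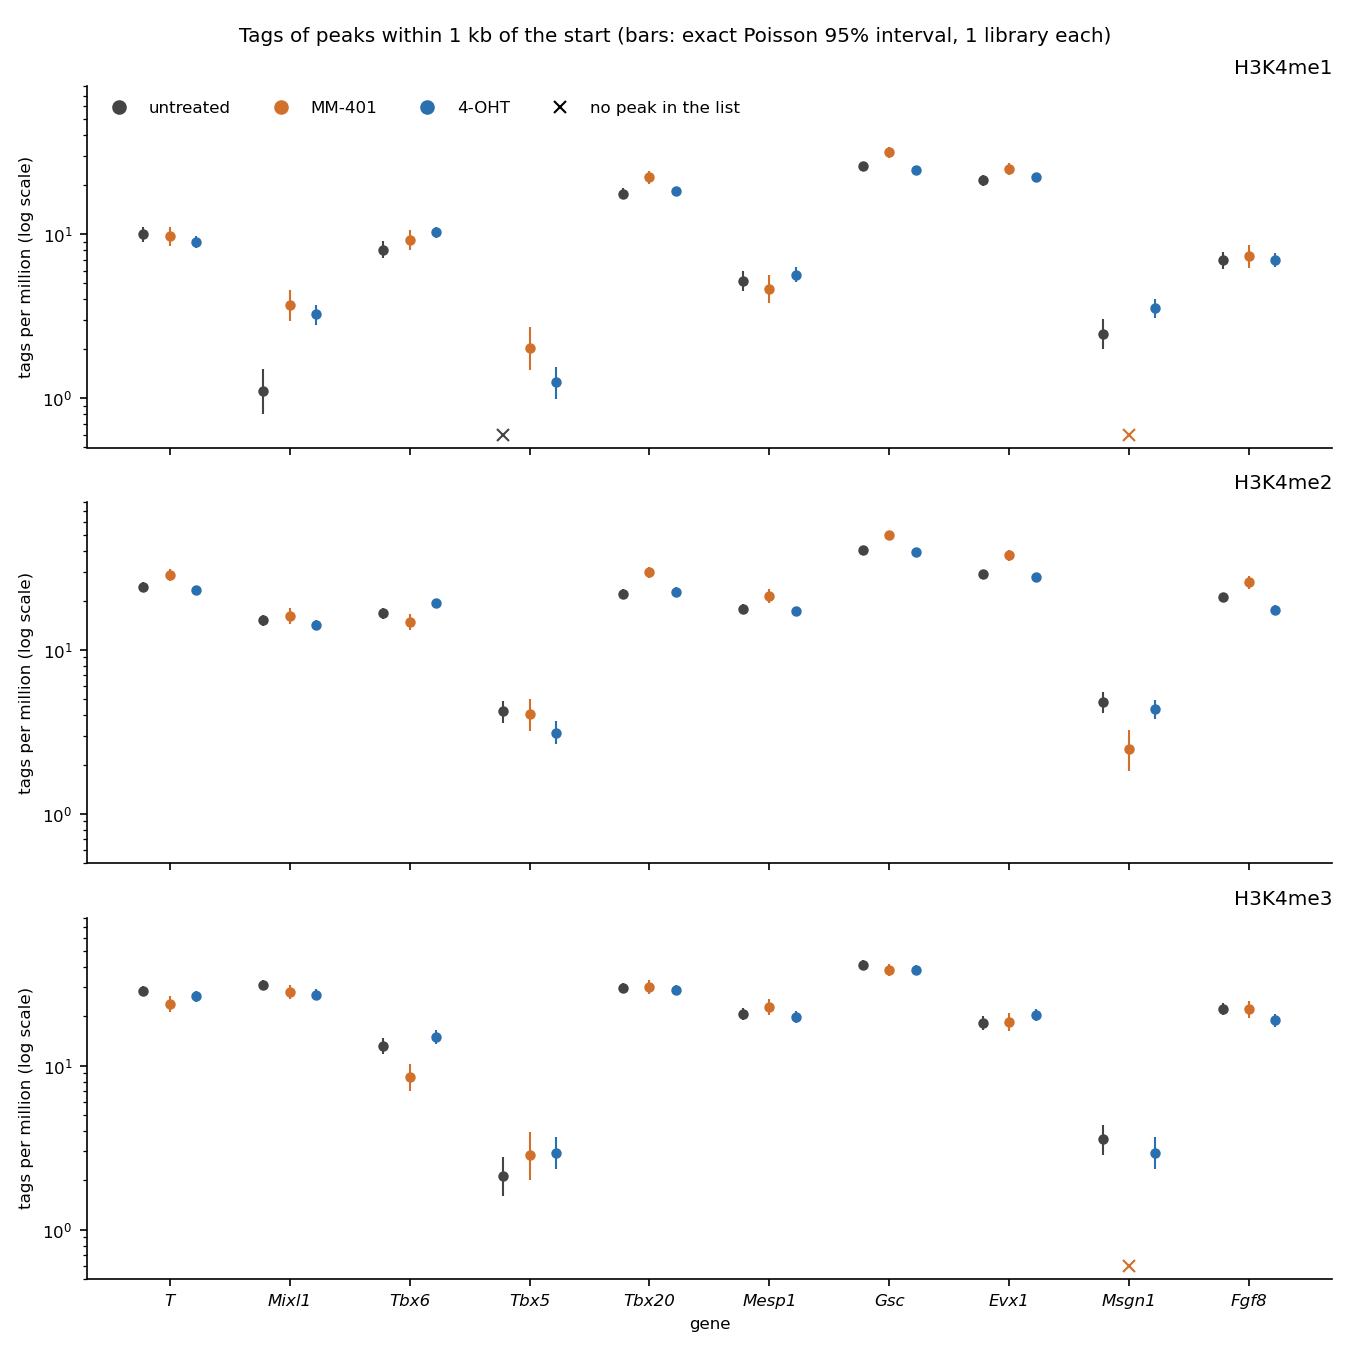
Tags per M filtered tags (log scale) of peaks within 1 kb of each gene's start, by mark, in untreated (grey), MM-401 (orange) and 4-OHT (blue) cells; points are single libraries, bars are exact Poisson 95% intervals and crosses mark a start with no peak in the list. Most starts keep their place in the 3 conditions, while Mixl1 H3K4me1 stands higher in both treatments and Msgn1 has no H3K4me1 or H3K4me3 peak with MM-401.

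At 3 neighbouring genes whose start peaks stand apart from those of the members, H3K4me3 was higher with MM-401, as at 71.0% of all starts. In the Tbx6 window, the start of Ypel3 had 34.0, 44.6 and 32.8 tags per M of H3K4me3 in untreated, MM-401 and 4-OHT cells, and that of Ppp4c, a catalytic subunit of protein phosphatase 4, had 70.8, 95 and 75.4. In the Fgf8 window, the start of Npm3, a nucleoplasmin-family histone chaperone, had 48.2, 63.6 and 58.1. The 3 log2 ratios with MM-401 were 0.39, 0.42 and 0.40, where Tbx6 was at -0.63, Fgf8 at -0.01 and, among the other members, Tbx5 at 0.42. Untreated H3K4me3 was higher at these 3 neighbours than at Tbx6 and Fgf8, and over all starts the ratio went with that level. The part of the untreated level here was not tested. At Wdr93 beside Mesp1 no direction could be read, since its H3K4me3 peak (2.22 tags per M untreated) had no listed MM-401 partner. LOC115486424 shares the start peak of T, which was at -0.26. Window sums for Tbx6 (120.0, 150.3 and 126.4) and Fgf8 (82.3, 93.1 and 83.1) were therefore mainly readings of these neighbours.

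Away from gene ends, the 17 untreated H3K4me3 peaks in the windows had lower H3K4me3 with MM-401 more often than higher. Tbx5 alone held 9 of the 17, placed by its gene ends only. Mixl1, Mesp1, Gsc, Msgn1 and Fgf8 held none, so the counts are of sites and not of genes. Of the 13 that overlapped an MM-401 peak, 6 lay in Tbx5. A ratio below 0 was found at 10 of the 13 (62.9% of 18710 such sites in the genome), with a median of -0.38 against -0.20. By at least 1.5-fold, 3 were lower (27.4% of all) and 1 was higher (10.8% of all). The Tbx20 site 2539 to 4169 bp upstream went from 9.14 to 5.57 tags per M, with 9.24 after 4-OHT. The Tbx20 site inside the gene went from 12.9 to 8.43, with 11.8 after 4-OHT, and the Evx1 site 6569 to 7998 bp upstream from 12.4 to 8.12, with 10.2 after 4-OHT. The site that was higher lay in Tbx5 and went from 3.56 to 5.49, with 3.82 after 4-OHT.

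H3K4me2 at the same 13 sites did not go the same way. Its median log2 ratio with MM-401 was 0.25 and 11 of 13 were above 0, and the H3K4me3 ratio was below the H3K4me2 ratio in 11 of 13. Over 17419 such sites in the genome the medians were 0.12 for H3K4me2 and -0.24 for H3K4me3, and 77.8% had the lower ratio in H3K4me3. A pair of Tbx5 sites shared 1 MM-401 peak of H3K4me2, so the 13 sites lay in 12 separate H3K4me2 regions. With overlapping peaks joined the counts were again 11 and 11 of 13. In the genome, 11096 of 17456 such sites then had an H3K4me2 ratio above 0, and 81.3% had the lower ratio in H3K4me3. At the Tbx20 upstream site, for example, H3K4me2 went from 15.1 to 18.0 tags per M as H3K4me3 went from 9.14 to 5.57, and at the Evx1 upstream site H3K4me2 went from 11.0 to 13.1. The upstream site of T, 3869 to 5238 bp before the start, had H3K4me2 of 9.86 and 11.5 and H3K4me3 of 4.31 and 3.17. These sites share this pattern with the genome, in libraries where drug and handling cannot be told apart.

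**Figure D3:**
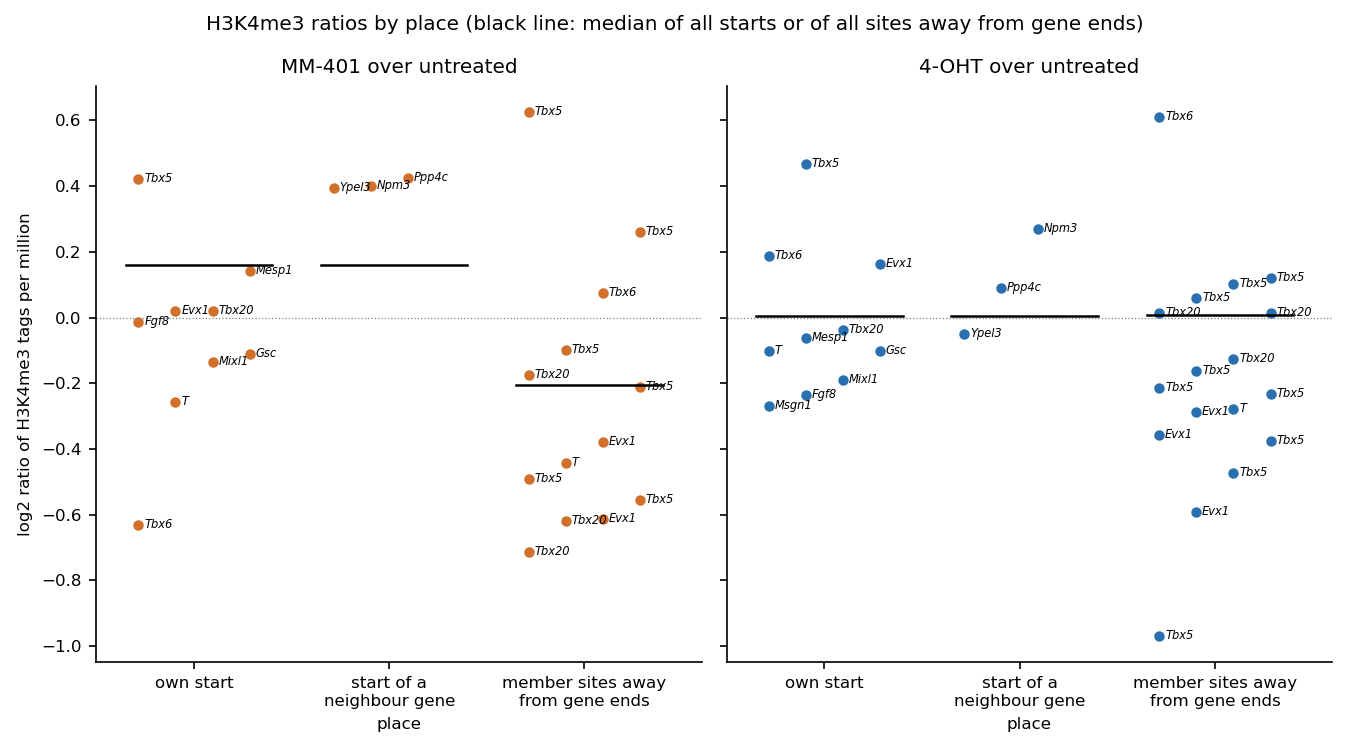
Log2 ratio of H3K4me3 tags per M, MM-401 (left) or 4-OHT (right) over untreated, at the genes' own starts, at the starts of neighbours inside the windows, and at H3K4me3 sites of the windows away from gene ends; each point is 1 start or site in 1 pair of libraries and black lines are medians over all starts or all such sites. With MM-401 the 3 neighbours lie near 0.4, above most own starts, and 10 of 13 sites away from gene ends lie below 0.

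Msgn1, which drives presomitic differentiation, was the gene with the largest difference in H3K4me2. Its untreated window held 21.5 tags per M of H3K4me1 in 4 peaks, 9.14 of H3K4me2 in 4 peaks and 3.56 of H3K4me3 in 1 peak. With MM-401 it held 9.99 (8.72 to 11.4) of H3K4me1 in 2 peaks, 2.47 (1.83 to 3.27) of H3K4me2 in 1 peak and no listed H3K4me3 peak. With 4-OHT it held 24.0 (22.8 to 25.2), 14.6 (13.6 to 15.8) and 2.95 (2.33 to 3.69). MM-401 was lowest for H3K4me1 and H3K4me2, and its intervals for these marks did not overlap those of the other conditions. For H3K4me3 there was no MM-401 level to rank. With a score of at least 100 no H3K4me2 comparison with MM-401 was possible at Msgn1. Of 17601 genes with an untreated H3K4me3 peak in the window, 4.32% had none with MM-401. The missing Msgn1 peak (chr12:11207922-11209180) held 90 untreated tags, which an equal level would make 46.0 at the MM-401 depth. The MM-401 list began at 13 tags, and 29.4% of its peaks held that number of 46.0 or fewer. Absence from a list is not a count of 0, and the part of depth in it was not tested. At the start itself H3K4me2 went from 4.79 (4.14 to 5.52) to 2.47, and to 4.34 with 4-OHT, and H3K4me1 had no listed MM-401 peak there, as at 6.70% of starts with an untreated one. The higher H3K4me2 with 4-OHT (log2 ratio 0.68) rests on a flanking peak that reached beyond the window (chr12:11195871-11199678, 383 tags, 7.88 tags per M). It was 0.18 with overlapping peaks joined, 0.05 scaled to the window, -0.14 at the start and -0.38 in 5 kb, and also under 1.5-fold per M tags in peaks (0.55) and by summed width (0.46).

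Mixl1, a target of Nodal signalling in the streak, had the largest differences in H3K4me1. At its start H3K4me1 was 1.11 tags per M (0.798 to 1.51) over 901 bp in untreated cells, 3.69 (2.94 to 4.58) over 2009 bp with MM-401 and 3.24 (2.81 to 3.72) over 2391 bp with 4-OHT. Both treated libraries stood above the untreated one, which they share as the reference, and their own intervals overlapped. The untreated peak held 41 tags with a score of 51.3, close to the lowest score in the list, and Mixl1 could not be compared in either treatment with a score of at least 100, nor with MM-401 with equal numbers of peaks. The window sum with 4-OHT was 4.63, because a further peak 5932 to 7129 bp upstream was listed in that library alone. H3K4me2 at this start was 15.1, 16.1 and 14.2 in untreated, MM-401 and 4-OHT cells, and neither it nor H3K4me3 differed by 1.5-fold. Tbx5, at the gene end used as its start, had an H3K4me1 peak in the MM-401 and 4-OHT lists, at 2.03 and 1.25 tags per M. None was listed there in untreated cells, which is not a count of 0. These peaks held 45 and 77 tags, with scores of 65.7 and 91.2, under 100. Of all H3K4me1 peaks, 3.36% with MM-401 and 16.7% with 4-OHT had no untreated partner.

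Across the windows with MM-401, H3K4me1 was at least 1.5-fold higher at 1 of 10 genes (Mixl1; 2.51% of all genes) and lower at 2 (Msgn1 and Mesp1; 14.3% of all genes). The median log2 ratio was 0.05 against -0.12 for all genes, and 7 of 10 genes were above the latter. Mesp1, an early cardiac mesoderm factor, went from 18.3 (17.0 to 19.8) to 11.0 (9.69 to 12.5), with 14.8 (13.9 to 15.8) after 4-OHT. The Mesp1 call rests on the edge of the window: an untreated peak of 4.28 tags per M (chr7:79780408-79782362) reached into it, and its MM-401 counterpart of 4.82 ended just outside. With overlapping peaks joined the Mesp1 log2 ratio was -0.21, scaled to the window -0.38 and in a 5 kb window -0.15, none of them past 1.5-fold. The start of Mesp1 was at 5.21, 4.64 and 5.67 tags per M, with overlapping intervals. H3K4me2 was lower at 1 of 10 (Msgn1; 4.15% of all genes) and higher at none (1.76% of all genes), with 9 of 10 genes above 0 (63.3% of all genes) and a median of 0.14 against 0.07. For H3K4me3 no gene of the 9 compared was past 1.5-fold (1.29% of all genes higher, 7.93% lower), 2 of 9 were above 0 (61.0% of all genes), and the median was -0.14 against 0.09. The 2 were Tbx6 and Fgf8, whose window sums were mainly readings of neighbours. Their own starts were at -0.63 and -0.01, so Tbx6 was past 1.5-fold lower at its start.

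Across the windows with 4-OHT, H3K4me1 was at least 1.5-fold higher at 2 of 10 genes (Mixl1 and Fgf8; 12.5% of all genes) and lower at none (2.39% of all genes). The median log2 ratio was 0.00 against 0.15, with 6 of 10 genes below the latter. H3K4me2 was higher at 1 (Msgn1; 3.64% of all genes) and lower at none (1.42%), with 1 of 10 genes above 0 (60.8% of all genes) and a median of -0.07 against 0.05. H3K4me3 was past 1.5-fold at none of the 10 (2.73% of all genes higher, 1.79% lower), with 2 of 10 above 0 (55.2% of all genes) and a median of -0.06 against 0.02. The 2 were again Tbx6 and Fgf8. At the starts, H3K4me3 had a median of -0.08 against 0.01, and none was past 1.5-fold (2.48% of starts higher, 1.43% lower). At the 17 sites away from gene ends the H3K4me3 median was -0.21 against 0.01, and 11 of 17 were below 0 (49.1% of all), 2 of them lower by at least 1.5-fold (7.63% of all) with 1 higher (16.7% of all). Both treatments are read against the same untreated library, so their shared direction is not independent.

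At the starts, H3K4me1 with MM-401 was past 1.5-fold at 1 of 8 genes compared (Mixl1, higher; 7.44% of all starts) and lower at none (12.0% of all starts). With 4-OHT it was higher at 1 of 9 (Mixl1; 18.6%) and lower at none (2.93%). H3K4me2 at the starts was lower with MM-401 at 1 of 10 (Msgn1; 2.06%) and higher at none (2.73%), and with 4-OHT no start was past 1.5-fold (3.98% higher, 1.46% lower).

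The median log2 ratio of H3K4me2 at the 10 starts with MM-401 was 0.25, against 0.18 over all starts, and 7 of 10 genes were above 0 (82.7% of all starts). The 2 genes with the broadest domains stood higher beyond counting error, as did Tbx20, T, Fgf8 and Mesp1 with narrower peaks. The level at Gsc was 40.9 (39.0 to 42.9) untreated, 50.2 (47.2 to 53.4) with MM-401 and 39.8 (38.1 to 41.6) with 4-OHT. Evx1 had 28.9 (27.2 to 30.6), 37.7 (35.1 to 40.5) and 27.9 (26.5 to 29.5). Tbx20 had 22.1 (20.6 to 23.6), 29.7 (27.4 to 32.2) and 22.7 (21.4 to 24.1). In Gsc, Evx1 and Tbx20 the 4-OHT interval overlapped the untreated one, and the MM-401 differences were under 1.5-fold. T had 24.3 (22.8 to 25.9), 28.8 (26.5 to 31.2) and 23.0, and Mesp1 had 17.75 (16.5 to 19.1), 21.4 (19.4 to 23.5) and 17.2. Fgf8 had 20.9 (19.5 to 22.4), 25.8 (23.7 to 28.2) and 17.5 (16.4 to 18.7), so its 4-OHT level lay below the untreated interval. Tbx6 had 16.8, 14.8 and 19.3 and Tbx5 4.22, 4.04 and 3.13. H3K4me1 at the starts of Gsc (25.8, 31.5 and 24.7), Evx1 (21.2, 25 and 22.3) and Tbx20 (17.6, 22.1 and 18.4) was also highest with MM-401.

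The Fgf8 difference in H3K4me1 after 4-OHT was not at Fgf8. The window went from 34.7 tags per M (32.8 to 36.7) to 68.6 (66.6 to 70.7), and MM-401 gave 37.0. A single 4-OHT peak of 21337 bp with 2460 tags (39.8 tags per M), chr19:45749535-45770871, began 6594 bp upstream of Fgf8, overlapped Npm3 and Oga, the O-GlcNAcase gene, and ran away from Fgf8. At the start of Fgf8 H3K4me1 was 6.91, 7.34 and 6.96 in untreated, MM-401 and 4-OHT cells. With overlapping untreated and treated peaks joined into 1 region, so that all tags of a region count wherever it touches the window, the Fgf8 log2 ratio was 0.59, against 0.98 without joining.

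**Figure D4:**
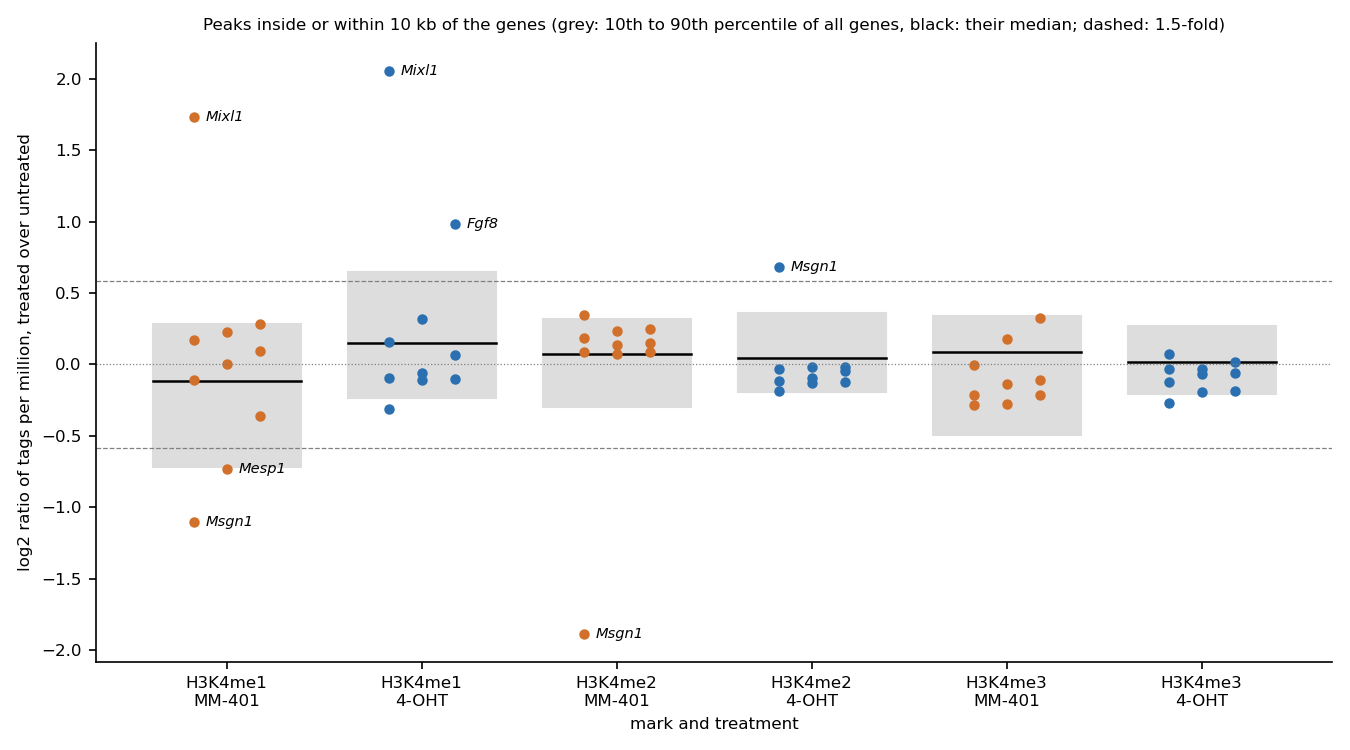
Log2 ratio of tags per M, treated over untreated, summed over peaks inside or within 10 kb of each gene, by mark and treatment (orange MM-401, blue 4-OHT); points are genes, grey boxes span the 10th to 90th percentile of all genes, black lines are their medians and dashed lines mark 1.5-fold. Mixl1, Msgn1, Mesp1 and Fgf8 lie beyond 1.5-fold in at least 1 column, and no gene does for H3K4me3.

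Peaks without a partner in the treated list were counted next. With MM-401, 7 of 46 H3K4me1 peaks (15.2%), 8 of 41 H3K4me2 peaks (19.5%) and 7 of 34 H3K4me3 peaks (20.6%) had no overlapping treated peak, against 34.4%, 33.8% and 38.2% of all untreated peaks. With 4-OHT the counts were 2 of 46 (4.35%), 4 of 41 (9.76%) and 0 of 34 (an exact Clopper-Pearson 95% upper limit of 10.3%), against 9.35%, 6.44% and 8.19%. The untreated peaks of these windows differed from all untreated peaks in place and size. For H3K4me1, H3K4me2 and H3K4me3, 19 of 46, 17 of 41 and 17 of 34 lay within 1 kb of a gene end. Over all peaks these were 25817 of 119739, 17962 of 89538 and 15433 of 52912. Window peaks with an MM-401 partner held a median of 150, 442 and 314 untreated tags, against 111, 133 and 98 over all peaks. The part of place and size in the shares was not tested. The shares also move with how many peaks a list holds. With a score of at least 100 that of H3K4me1 with MM-401 was 33.3% and that of H3K4me2 with 4-OHT 0%, and with equal numbers of peaks those with MM-401 were 5.88% for H3K4me2 and 7.69% for H3K4me3. The H3K4me3 peaks without an MM-401 partner were small, with a median of 56 untreated tags: 3 lay inside Tbx5, and 1 each at the start of Msgn1, at Wdr93 beside Mesp1, upstream of Evx1 and at Npm3. New peaks were also few: 2 of 39 H3K4me1 peaks with MM-401 (5.13%; 3.36% of all), none of 31 H3K4me2 (2.70% of all) and none of 27 H3K4me3 (0.864% of all). With 4-OHT they were 3 of 43 (6.98%), 2 of 39 (5.13%) and 1 of 34 (2.94%), against 16.7%, 18.2% and 15.6% of all.

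Other genes of the same pathways were read in the same way. For H3K4me3 with MM-401, the window medians were -0.09 for 11 other T-box genes compared and -0.14 for 15 genes of streak signals and organiser. They were -0.12 for 15 presomitic genes and -0.08 for 13 cardiac and lateral mesoderm genes. These were close to the -0.14 of the 9 members compared and below the 0.09 of all genes. The core pluripotency genes, 10 compared, were at 0.30 with MM-401 and 0.29 with 4-OHT. With MM-401 the lists of other cell types were below 0.09 too. The medians were 0.07 for 7 neural precursor genes, -0.08 for 5 extra-embryonic endoderm genes and -0.52 for 3 fibroblast genes. A median below that of all genes was thus not particular to the mesoderm lists. Past 1.5-fold, the presomitic list had 1 lower, Meox1, a somite homeodomain factor, from 11.2 to 5.80 tags per M (7.93% of all genes). In the windows after 4-OHT, 2 genes of the 4 mesoderm lists were past 1.5-fold for H3K4me3, both higher (2.73% of all genes). They were Fgf17 (39.7 to 64.1) and Cdx4, a posterior patterning factor (22.0 to 41.5). For H3K4me2, Tbx19 was higher with MM-401 (1.67 to 2.63; 1.76% of all genes). Cer1, a secreted Nodal antagonist, was higher with 4-OHT (1.60 to 2.45; 3.64%). For H3K4me1 with MM-401, Tbx19 (1.74 to 2.84), Evx2 (22.2 to 39.2) and Rspo3, a Wnt amplifier (7.24 to 11.8), were higher (2.51% of all genes). Kdr, a receptor for Vegf (9.60 to 5.94), was lower (14.3%), and with 4-OHT Evx2 (33.4) was higher (12.5%). At the starts, H3K4me3 was higher at Tbx3, Lefty1 and Fgf17 with 4-OHT (2.48% of all starts). With MM-401 it was higher at Tbx4 (1.94%) and lower at Lefty2 and Cdx4 (5.27%). Start H3K4me1 with MM-401 was higher at 4 of 9 other T-box genes, 2 of 16 streak, 3 of 15 presomitic and 0 of 10 cardiac genes (7.44%). It was lower at 1, 0, 2 and 0 (12.0%).

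The genes nearest to the median profile of the 10 over the 9 mark libraries, by Euclidean distance of log2 tags per M plus 1, were Myo3a, Emx1, Fli1, Hoxa13 and Urad, at distances of 0.30 to 0.38. Of the 10 genes themselves, Gsc (0.32), Evx1 (0.59) and Tbx5 (0.63) were the nearest to it, and Msgn1 (8.58) and Mixl1 (5.93) the farthest. Emx1, for example, had H3K4me3 of 40.9, 32.3 and 36.3 tags per M in untreated, MM-401 and 4-OHT cells and H3K4me2 of 47.8, 53.6 and 40.7.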

How the data were processed

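Chromatin immunoprecipitation and sequencing was done for Mll1 and 3 histone marks in 10 libraries, with 4 inputs that enter only through the peak calls. Per the file headers, the authors called peaks in each library alone against 1 input with MACS 1.4.2 at a p cutoff of 1e-05, while the submitters' processing notes name MACS2, Bowtie2, SAMtools 1.5 and mm10; the headers were followed. The deposited tag counts are unscaled numbers of duplicate-filtered tags in a peak. The deposited score, the negative log10 of the MACS p multiplied by 10, served only as a filter. As a deposited percent, the false discovery rate of each peak is printed for Mll1. The deposited width is in bp.

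From these, tags were summed over whole peaks in each window and divided by the filtered tags that the headers give, in Python 3.11.15 with numpy 2.4.6, pandas 2.3.3, scipy 1.17.1 and matplotlib 3.10.9. Genes were placed with RefSeq (mm10); where it gave no strand (3077 of 20569 starts), the end with more untreated H3K4me3 was used. Each group is 1 library: no test was run, and past 1.5-fold stands for called, beside the share of all genes past the same fold. The code was tested on simulated data. The 10 genes and the other lists were chosen with earlier results of these data known. Named beside them are, for each other mesoderm list, up to 3 genes with the largest window difference past 1.5-fold, for H3K4me3 also at the start. The 5 genes with the nearest profile and neighbours with a peak at their ends are named too. Alternatives were the start alone, a 5 kb window, other scalings, width, stricter peaks, a fold of 2 and, added after seeing the data, joined peaks.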

Additional observations from a re-analysis of the deposited data

How the results depend on the processing

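No paired analysis was possible because each group is 1 library, and for the same reason no replicate could be left out. Of the values of the comparisons recomputed under the alternatives, 166 were counted as unchanged and 32 as moved. A value counted as unchanged was not always close to the reported one. The median log2 ratio for H3K4me1 with MM-401, reported as 0.05, was counted as unchanged at 0.21 for the start alone. It was also counted as unchanged at -0.33 with a score of at least 100. With overlapping untreated and treated peaks joined, an alternative chosen after seeing the data, the count lower in H3K4me1 with MM-401 was 1 and the count higher in H3K4me2 with 4-OHT was 0. With MM-401, the count of genes lower in H3K4me1 was 0 at the start alone and in a 5 kb window, and 1 when peaks were scaled to the part inside the window or the fold was 2; the count higher was 0 with a score of at least 100 or an equal number of peaks. The count lower in H3K4me2 was 0 with a score of at least 100, and the count lower in H3K4me3 was 1 at the start alone (Tbx6). With 4-OHT, the count higher in H3K4me1 was 1 at the start alone, in 5 kb, scaled to the window, with a score of at least 100 and at a fold of 2. The count higher in H3K4me2 was 0 at the start alone, in 5 kb, scaled to the window, per M tags in peaks, by summed width and at a fold of 2. The median log2 ratio for H3K4me1 with 4-OHT was -0.15 when centred on all genes. For H3K4me2 with MM-401 it was 0.25 at the start alone, -0.068 by summed width and 0.072 centred on all genes, and with 4-OHT -0.19 per M tags in peaks and -0.016 by summed width. For H3K4me3 with 4-OHT it was 0.13 by summed width.

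The share of untreated peaks without a treated one was 33.3% for H3K4me1 with MM-401 and 0% for H3K4me2 with 4-OHT with a score of at least 100. With an equal number of peaks it was 5.88% for H3K4me2 and 7.69% for H3K4me3 with MM-401. The sign turned in 3 single values. One was Fgf8 H3K4me1 with 4-OHT in 5 kb (-0.0031), where the 21337 bp peak drops out. The others were Msgn1 H3K4me2 with 4-OHT at the start (-0.14) and in 5 kb (-0.38). At the start the flanking peaks drop out. In 5 kb those with 4-OHT drop out, while an untreated one of 0.849 tags per M (chr12:11204023-11204769) stays in. Mesp1 H3K4me1 with MM-401 was -0.17 at the start alone. For the other differences among settings the cause was not tested. The MM-401 libraries were the shallowest for each mark, and the part of depth was not tested.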
